A study of Mus musculus with 4 samples.

Results

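Transcripts of the enzymes that place, copy and remove DNA methylation were followed in the spleen of newborn mice after exposure of their mothers to carbon black nanoparticles. The set was a list of 9 genes fixed by name: the writers Dnmt1, Dnmt3a, Dnmt3b, Dnmt3l and Uhrf1, and the erasers Tet1, Tet2, Tet3 and Tdg. Array probes were assigned to them by RefSeq accession, which gave 16 probes for 8 of the 9 genes, out of 26756 probes for 20280 genes on the array. No probe was matched to Tet1, and that gene was not analysed here. Where a gene had several probes, its brightest was used as the main probe, and the others are given beside it.

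ICR mice, an outbred stock, were used, and the spleens came from offspring that were 5 days old. Carbon black nanoparticles (CB-NP) are ultrafine particles of nearly pure carbon. CB-NP dams were dosed through the nose on gestational days 5 and 9, at 95 microg/kg on each day, whereas distilled water, 1 mL/kg, was given to the dams of the controls. The 4 groups were the sons and the daughters of control dams and those of CB-NP dams, each a pool of spleen RNA read on 1 single-colour (Cy3) array. The number of animals or litters in a pool was not given in the sources used here.

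With 1 pool per group there was no replicate, and differences within either sex have no spread between animals to be set against. In the limma fit over both sexes, the SE and p-values rest on how far the sexes disagreed, moderated over all genes. They do not measure spread between animals. The error given with each difference is the scanner error, which the scanning software estimated for reading the spots and which was 0.204 on the log2 scale for a typical pair of arrays. In bulk spleen RNA, fewer cells of a type and less RNA per cell cannot be told apart.

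DNA methylation in mammals sits mostly on the cytosine of CpG, a C followed by a G, and is copied when DNA is replicated. UHRF1 recognises newly copied DNA that carries the mark on the old strand and brings in DNMT1, which completes it. DNMT3A and DNMT3B write new marks, with DNMT3L as a cofactor that has no activity of its own and acts mainly in germ cells. TET1, TET2 and TET3 oxidise the methyl group, and TDG cuts out the oxidised bases so that repair can put back an unmodified cytosine. In blood-forming tissue Dnmt3a and Tet2 are known as regulators of stem and progenitor cells, and Dnmt1 and Uhrf1 are known to be abundant in dividing cells.

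By main probe, Dnmt1, Uhrf1 and Tdg were lower, and Dnmt3a, Dnmt3b and Tet2 higher, in the CB-NP pools of both sexes. Of these, only Dnmt3a differed by more than the scanner error in both sexes. With the authors' scaling, the female signs of Uhrf1 and Tdg turned. Over 13929 genes detected in every pool, 39.4% were lower in both sexes and 27.8% higher in both. The start regions of Dnmt1, Uhrf1, Dnmt3a and Tet2 are shown, a choice made with the member values known. Each is the 250 bases before an annotated start (RefSeq, GRCm38.p6), written 5′ to 3′ on the strand of the gene, with every CpG in capitals. Where a gene had several annotated starts, that with the most CpG is printed. The Dnmt1 window is chr9:20952624-20952873 (minus strand), the Uhrf1 window chr17:56304063-56304312 (plus strand), the Dnmt3a window chr12:3806910-3807159 (plus strand) and the Tet2 window chr3:133544391-133544640 (minus strand).
Dnmt1: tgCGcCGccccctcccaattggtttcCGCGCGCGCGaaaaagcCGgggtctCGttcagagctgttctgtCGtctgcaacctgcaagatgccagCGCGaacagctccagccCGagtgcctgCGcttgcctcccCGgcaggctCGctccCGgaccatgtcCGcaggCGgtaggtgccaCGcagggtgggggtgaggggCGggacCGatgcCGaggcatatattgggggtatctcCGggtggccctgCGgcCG
Uhrf1: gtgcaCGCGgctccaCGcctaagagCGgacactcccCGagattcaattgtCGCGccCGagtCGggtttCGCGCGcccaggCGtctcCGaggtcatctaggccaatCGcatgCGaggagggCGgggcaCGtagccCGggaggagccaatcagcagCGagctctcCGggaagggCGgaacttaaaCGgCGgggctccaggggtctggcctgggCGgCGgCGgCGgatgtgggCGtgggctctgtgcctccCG
Dnmt3a: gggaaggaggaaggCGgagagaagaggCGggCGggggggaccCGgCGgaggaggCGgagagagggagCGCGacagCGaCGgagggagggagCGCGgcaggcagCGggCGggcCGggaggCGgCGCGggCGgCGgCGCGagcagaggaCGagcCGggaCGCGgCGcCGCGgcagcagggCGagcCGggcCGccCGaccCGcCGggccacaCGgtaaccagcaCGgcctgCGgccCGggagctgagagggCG
Tet2: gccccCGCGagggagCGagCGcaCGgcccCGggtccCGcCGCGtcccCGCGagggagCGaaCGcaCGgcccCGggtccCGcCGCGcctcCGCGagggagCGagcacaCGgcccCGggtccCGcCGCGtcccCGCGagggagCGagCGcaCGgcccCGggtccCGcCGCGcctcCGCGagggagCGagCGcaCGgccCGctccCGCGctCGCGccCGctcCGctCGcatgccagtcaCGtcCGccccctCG
These windows hold 26 CpG in Dnmt1, 30 in Uhrf1, 40 in Dnmt3a and 51 in Tet2. Windows before other annotated starts of these genes held fewer, with 2 and 7 CpG in Dnmt1, 10 in Uhrf1, and 38 and 15 in Dnmt3a. The median over all 32851 windows of this length before annotated starts, which were not picked for their CpG, was 6. The Tet2 window had more CpG than 99.9% of them. By contrast, the window with the most CpG before a Dnmt3l start held 5. The binding motif of the E2F factors, which regulate genes of DNA replication, was searched on both strands in its 4 forms TTTCCCGC, TTTGGCGC, TTTCGCGC and TTTGCCGC, no 2 of which can match the same stretch. Of the 16 windows before starts of the 9 genes, 2 held a match, and in each it was TTTCGCGC. It began 219 bases before the Dnmt1 start whose window is printed (read on the opposite strand) and 185 bases before that of Uhrf1. Of the annotated starts of each gene, these lie furthest into the gene. The windows before the other starts of Dnmt1 and Uhrf1 held no match. Of all windows, 1.86% held any of these forms and 0.256% held TTTCGCGC. This form itself contains 2 CpG, and the windows that matched held 26 and 30 CpG beside the median of 6. Windows of similar CpG content were not compared, so these shares do not show how unusual the matches are. A match is a description of the letters, and no binding was measured.

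All 16 probes were well above background on all 4 arrays. Between 57.3% and 59.0% of the 59305 non-control spots of an array were well above background, and none was saturated. The label of spleen was met by the red cell genes Slc4a1 and Alas2 and the B cell genes Cd79b and Ms4a1, each of them detected in every pool. Levels below are log2 processed signals minus the 75th percentile of the same array. Such a level compares the pools for a given probe, and probes of different genes were not set against each other. Within some gene lists the unlogged levels were summed, and such a sum follows its brightest probes most. The plot of member levels shows the main probe of each gene in every pool.

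**Figure D1:**
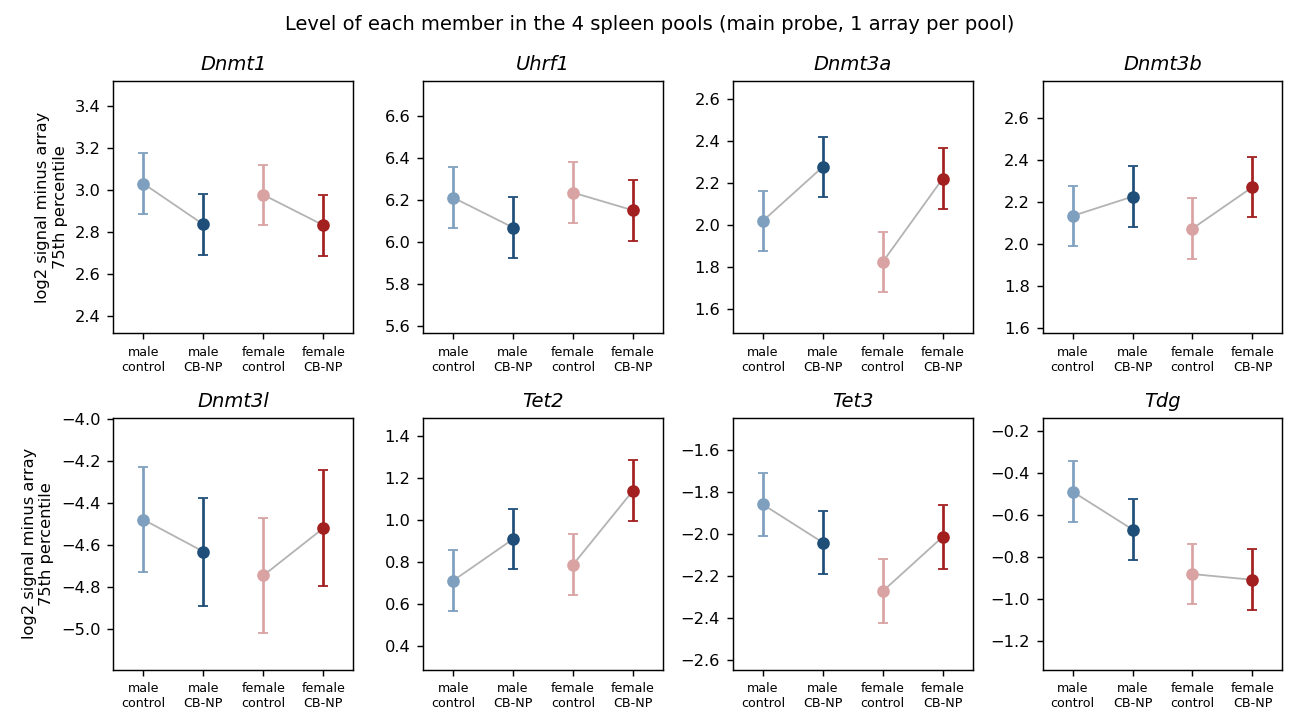
Log2 level (signal minus the 75th percentile of the array, y axis) of the main probe of 8 members in the 4 spleen pools (x axis), with 1 array per pool. Points are single arrays, bars are the scanner error of that array and grey lines join control to CB-NP within a sex. All panels span the same range of log2 units. Dnmt3a is higher in both CB-NP pools than in both control pools, and Tet3 is lowest in the female control.

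The maintenance writers Dnmt1 and Uhrf1 were slightly lower in both CB-NP pools, by less than the scanner error for their main probes. Dnmt1, the methyltransferase that copies the mark, had a level of 3.03 in control males, 2.84 in CB-NP males, 2.98 in control females and 2.83 in CB-NP females. Both controls therefore lay above both CB-NP pools, and the whole range over the 4 pools was 0.20. The log2 difference, CB-NP minus control, was -0.19 in males and -0.14 in females, each with a scanner error of 0.20. Over both sexes limma gave -0.17 (SE 0.09, adjusted p = 0.433 with Benjamini-Hochberg adjustment over 14498 genes). Uhrf1, which recruits DNMT1, had levels of 6.21 in control males, 6.07 in CB-NP males, 6.23 in control females and 6.15 in CB-NP females. Again the controls were the higher pair, with differences of -0.14 in males and -0.08 in females, the latter turning to 0.01 under the authors' scaling. Another Uhrf1 probe, designed on a different RefSeq transcript, differed by -0.42 in males (scanner error 0.20) and by -0.15 in females. The limma estimate for the main Uhrf1 probe was -0.11 (SE 0.09, adjusted p = 0.548).

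Over main probes, the de novo writer Dnmt3a showed the highest difference of the members in each sex. Its level was 2.02 in control males, 2.28 in CB-NP males, 1.83 in control females and 2.22 in CB-NP females. Both CB-NP pools lay above both controls, while the CB-NP pools of the 2 sexes lay within the scanner error of each other. Dnmt3a was 1.20-fold higher with CB-NP in males (log2 difference 0.26, scanner error 0.20) and 1.32-fold higher in females (0.40, scanner error 0.20). It was the only member whose main probe differed in the same direction in both sexes by more than the scanner error each time, which was 1 of 8, whereas 15.3% of 13929 genes did so. Of all genes measured in a pair, 87.2% had a lower difference than Dnmt3a in males and 90.3% in females. Its limma estimate of 0.33 (SE 0.10) did not pass, with an adjusted p of 0.353 and an unadjusted p of 0.0343, beside 13.8% of all genes tested with an unadjusted p under 0.05.

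Dnmt3b, the other de novo methyltransferase, gave probes that did not point the same way. Its main probe was at 2.13 in control males, 2.23 in CB-NP males, 2.07 in control females and 2.27 in CB-NP females. That is a difference of 0.09 in males and 0.20 in females, both under the scanner error. Another of its probes gave 0.14 and -0.04, and the remaining probe -0.07 and -0.09. All 3 Dnmt3b probes carry the same accession, so the array does not tie their disagreement to named isoforms. Limma gave 0.14 (SE 0.09, adjusted p = 0.487) for the main probe.

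Dnmt3l, the germ cell cofactor, had a dim main probe, with a processed signal between 13.7 and 15.0 intensity units on the 4 arrays. Its level was -4.48 in control males, -4.63 in CB-NP males, -4.75 in control females and -4.52 in CB-NP females. The differences of -0.15 in males and 0.23 in females had scanner errors of 0.36 and 0.39, so no order of the pools could be read at this signal. The limma estimate was 0.04 (SE 0.13, adjusted p = 0.897).

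Among the erasers, Tet2, a dioxygenase that begins the removal of the mark, was higher in both CB-NP pools with each of its probes. The main probe had levels of 0.71 in control males, 0.91 in CB-NP males, 0.79 in control females and 1.14 in CB-NP females. The female CB-NP pool was the highest, and the male CB-NP pool followed it by more than the scanner error of 0.20. The difference was 0.20 in males (1.15-fold, scanner error 0.20) and 0.35 in females (1.28-fold, scanner error 0.20). Another Tet2 probe gave 0.34 (1.27-fold) and 0.28 (1.22-fold), each beyond its scanner error of 0.21. Limma gave 0.28 (SE 0.10, adjusted p = 0.368) for the main probe. The direction for Dnmt3a and Tet2 was the same under all 5 other scalings and probe choices tried, with Dnmt3a between 0.19 and 0.49 and Tet2 between 0.18 and 0.44 over both sexes.

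Tet3, a dioxygenase of the same family, differed in opposite directions in the 2 sexes, with all 3 of its probes. The main probe was at -1.86 in control males, -2.04 in CB-NP males, -2.27 in control females and -2.01 in CB-NP females. The male control was thus the highest and the female control the lowest of the 4, with the CB-NP pools between them and 0.03 apart. CB-NP minus control was -0.18 in males (scanner error 0.21) and 0.26 in females (scanner error 0.22). Another probe gave -0.53 and 0.27, and the remaining one -0.16 and 0.31. The probe with the widest difference was at -1.82 in the male control and -2.35 in the male CB-NP pool. In females it was at -2.50 in the control and -2.23 in the CB-NP pool. All processed signals of the Tet3 probes were below 100 units, and the difference between the sexes was not tested. Limma gave a shared CB-NP estimate of 0.04 (SE 0.15, adjusted p = 0.900).

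Tdg, the glycosylase that excises oxidised cytosines, had levels of -0.49 in control males, -0.67 in CB-NP males, -0.88 in control females and -0.91 in CB-NP females. With this main probe both male pools were above both female pools, whereas the dimmest probe put CB-NP females above CB-NP males. CB-NP minus control was -0.18 in males and -0.03 in females, the latter turning to 0.07 under the authors' scaling, and other probes gave -0.10 and -0.14 and, for the dimmest, -0.39 and 0.14. Limma gave -0.10 (SE 0.10, adjusted p = 0.607). The names table lists near-identical copies of this gene, and the copy Tdg-ps2 had a probe of its own that differed by -0.27 in males and -0.07 in females. Whether the probes tell these transcripts apart was not tested, so the Tdg values are uncertain to that extent.

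**Figure D2:**
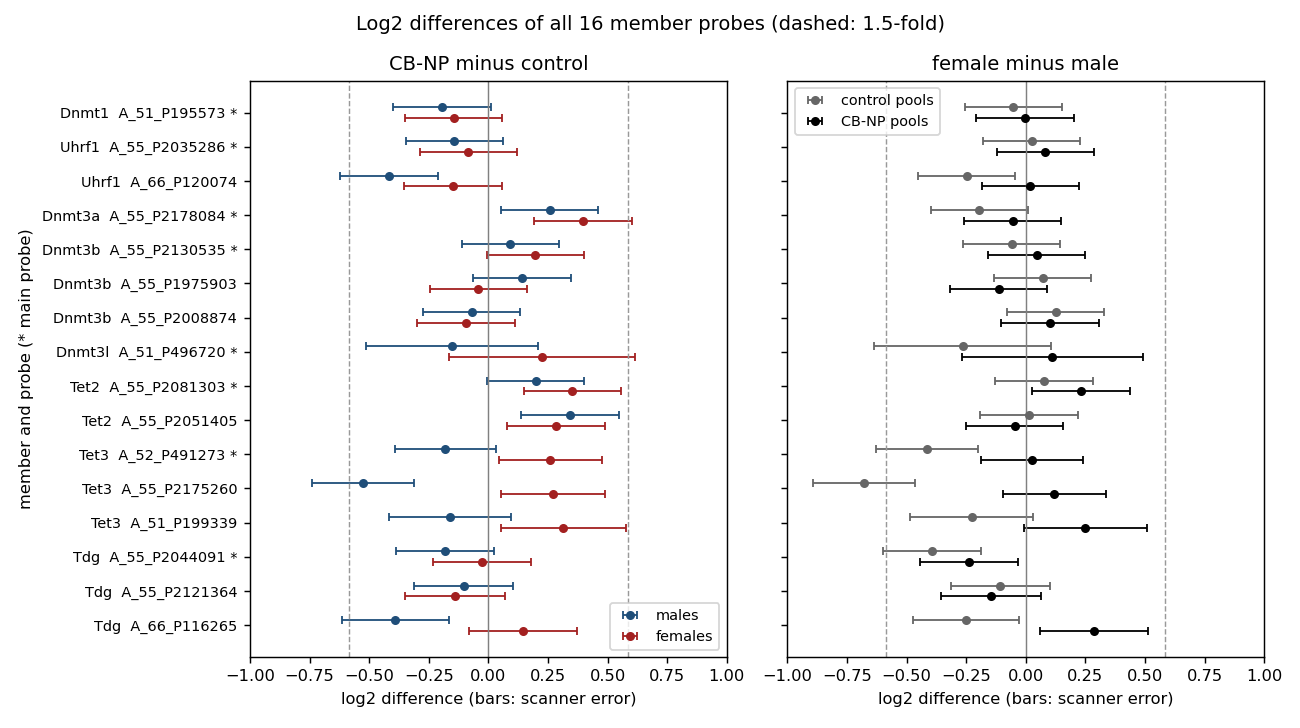
Log2 differences of all 16 member probes (rows, main probes marked with a star), on the left CB-NP minus control in males and females and on the right female minus male in control and CB-NP pools. Bars are the scanner error of each difference and dashed lines mark 1.5-fold. In the left panel no probe reaches 1.5-fold, and in the right panel only a Tet3 probe in the control pools does.

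Counted over the 8 main probes, none was at least 1.5-fold different between CB-NP and control in either sex. Over all genes, 4.57% of 14182 genes in males and 6.89% of 14071 in females differed by at least 1.5-fold, and 1.26% of 13929 did so in the same direction in both sexes. Of the genes past 1.5-fold, the share that was higher was 56.2% in males and 63.6% in females, and it ran from 54.8% to 67.9% and from 36.4% to 80.7% over the other scalings and probe choices. Median centring moved the median difference of all genes by -0.111 in females and by 0.118 between the control pools. The members' median difference was -0.15 in males, with 3 above 0 and 5 below, and 0.21 in females, with 5 above and 3 below, beside medians of -0.02 and -0.04 over all genes. Dnmt1, Uhrf1 and Tdg were below 0 in both sexes, Dnmt3a, Dnmt3b and Tet2 above 0 in both, and Dnmt3l and Tet3 had opposite signs in the sexes. Of 13929 genes, 39.4% were below 0 in both sexes and 27.8% above 0 in both. With the authors' scaling only Dnmt1 was below 0 in both. Limma called 0 of the 8 members for a CB-NP effect, beside 0.0828% of all 14498 genes called. At an unadjusted p under 0.05 there was 1 of the 8 (Dnmt3a), beside 13.8% of all genes. The histogram of all genes shows where the members lie.

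**Figure D3:**
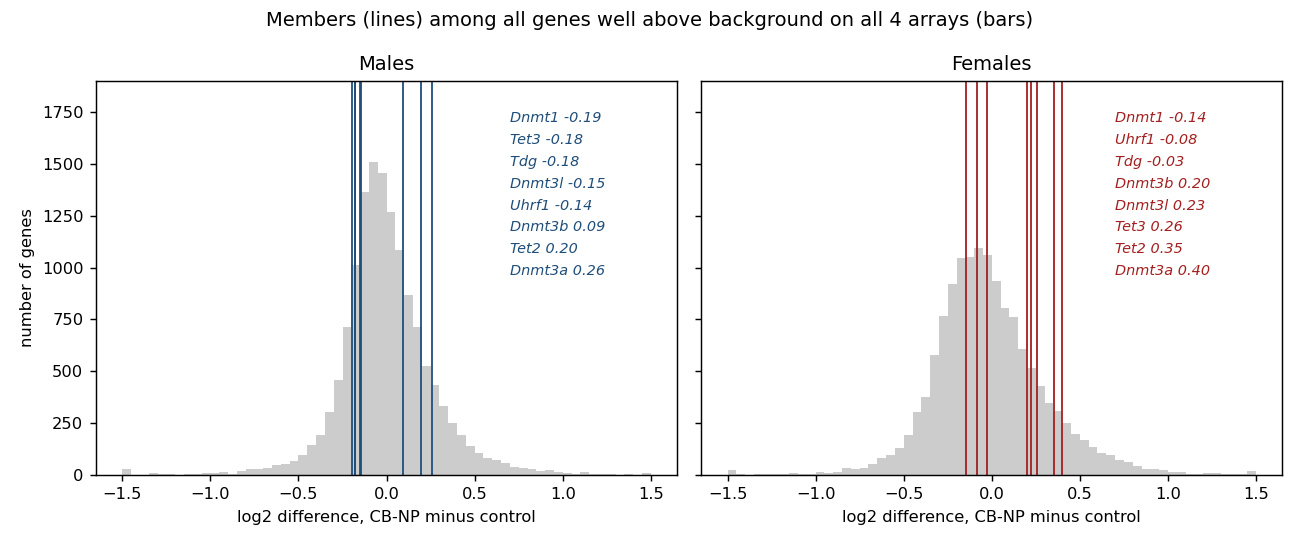
Histograms of the log2 difference, CB-NP minus control (x axis), over 13929 genes well above background on all 4 arrays (y axis, number of genes; values beyond the axis are drawn at its ends), in males and females. Coloured lines and their values are the 8 members, which all lie in the body of the distribution, from -0.19 to 0.26 in males and from -0.14 to 0.40 in females.

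Female and male pools were set side by side to see how far members differ with no exposure. These differences use the same arrays as the CB-NP comparisons. In the control pools Tet3 and Tdg stood lowest in females relative to males, at -0.41 (scanner error 0.21) and -0.39 (scanner error 0.20), and another Tet3 probe was at -0.68, or 1.60-fold lower. In the CB-NP pools Tet3 was at 0.03 and Tdg at -0.24. Another Tdg probe gave -0.11 in controls and -0.15 in CB-NP pools. The dimmest Tdg probe gave -0.25 in controls and 0.29 (scanner error 0.23) in CB-NP pools, the opposite direction. Dnmt3a was at -0.20 in controls and -0.06 in CB-NP pools, and Tet2 at 0.08 and 0.23. Dnmt1 and Uhrf1 lay between -0.05 and 0.08 in both. The sign of the Dnmt1 and Uhrf1 differences in controls and of the Tet3 and Dnmt1 differences in CB-NP pools turned under other scalings or with the mean over probes. No main probe was past 1.5-fold in controls, where 4.06% of 14160 genes were. Limma called 0 members for sex, with 1 (Tdg, log2 estimate -0.32, SE 0.10) at an unadjusted p of 0.0394 and an adjusted p of 0.856, beside 0.0276% of all genes called and 5.78% with an unadjusted p under 0.05.

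Genes that work around the members were taken from 7 lists of named genes, and no gene of these lists was called by limma. Over all 13929 genes detected in every pool, 39.4% were below 0 in both sexes and 27.8% above 0 in both, which is the background for the counts that follow. With quantile normalization 33.4% were below 0 in both, and with the authors' scaling, which moves all genes of an array alike, 25.8%. Partners of maintenance methylation were below 0 in both sexes in 11 of 15 cases, as were Dnmt1 and Uhrf1, with medians of -0.09 in males and -0.10 in females. With quantile normalization or the authors' scaling this count was 8 of 15. The brightest were Pcna, the sliding clamp of replication, at -0.25 and -0.37 (limma adjusted p = 0.356), and Lig1, the ligase of lagging-strand synthesis, at -0.23 and -0.15 (adjusted p = 0.415). Proliferation genes were below 0 in both sexes in 20 of 22 cases, with medians of -0.20 and -0.26 beside -0.02 and -0.04 over all genes. None of the 22 was past 1.5-fold in either sex. Among them Mcm6, of the replicative helicase, was at -0.22 in males and -0.26 in females, Top2a, the mitotic topoisomerase, at -0.16 and -0.46, and Mki67, the antigen of cycling cells, at -0.18 and -0.02. With quantile normalization the count was 17 of 22 and with the authors' scaling 19 of 22.

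The summed level of the proliferation list, in units of each array's 75th percentile, was 1472 in control males, 1293 in CB-NP males, 1493 in control females and 1278 in CB-NP females. It was lower in both CB-NP pools, as were Dnmt1 and Uhrf1, and its part in those values was not tested.

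Readers of methylated CpG gave medians of -0.04 in males and -0.03 in females, with 5 of 10 below 0 in both sexes and 3 above in both. Mbd3, a subunit of the NuRD complex, was at -0.08 and -0.11 and Mbd2, a methyl-CpG binding protein, at -0.21 and -0.36. Base excision repair genes and deaminases, which act after TET and TDG or on cytosine itself, had medians of -0.01 and -0.10 over 16 measured genes. Ung, the uracil glycosylase, was at -0.05 and -0.04, and Xrcc1, a repair scaffold, at 0.13 and -0.05.

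TET partners and enzymes of their cofactors gave medians of -0.06 in males and -0.08 in females, with 8 of 13 below 0 in both sexes. With quantile normalization or the authors' scaling 5 of 13 were. Idh2, which makes the TET cofactor 2-oxoglutarate, was at -0.01 and -0.06, and Ogdh, which consumes it, at -0.02 and -0.08. Methyl donor genes were below 0 in both sexes in 14 of 17 cases, with a median of -0.10 over 18 genes in males and -0.22 over 17 in females. With the authors' scaling that count was 9 of 17. That scaling put the median of all genes above 0, at 0.04 in males and 0.05 in females, and with it those of the readers (0.02 and 0.07), of base excision repair in males (0.05) and of the TET partners in females (0.01). Mat2a, which makes S-adenosylmethionine, was at -0.07 and -0.21, and Shmt2, a serine hydroxymethyltransferase of folate metabolism, at -0.14 and -0.18. Of 16 germ cell genes that promoter methylation is known to silence in somatic cells, 11 were well above background in no pool. Among all 20280 genes with a probe, this held for 5165. Methylation itself was not measured. Of the other germ cell genes, Taf7l was at 0.10 in males and 0.36 in females and Brdt at -0.69 and 0.59. Both were well above background in all 4 pools, with mean processed signals of 1392.5 units for Taf7l and 197 for Brdt. The plot of the lists sets these genes beside the members.

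**Figure D4:**
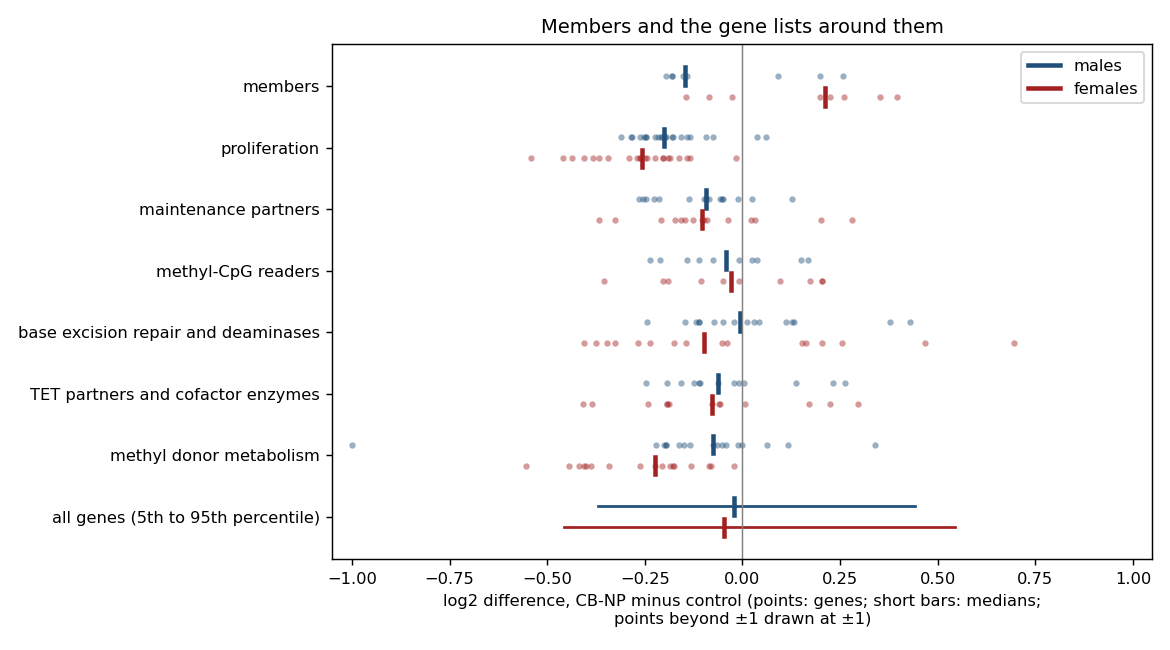
Log2 difference, CB-NP minus control (x axis), of the members and of 6 gene lists (rows), males in blue and females in red. Points are genes detected in all 4 pools (17 for methyl donors, where the text gives the male median over 18), points beyond 1 log2 unit are drawn at the edge, short bars are medians, and the bottom row gives the median and the 5th to 95th percentile of all genes. The proliferation points lie mostly below 0 in both sexes, and the members lie on both sides.

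Levels of cell type markers also differed between these pools. Limma called none of the marker genes except 3 of the pancreatic acinar list. B cell markers were higher in both CB-NP pools, with 9 of 9 above 0 in males and 8 of 9 in females and 7 of 9 at least 1.5-fold higher in both sexes, against 0.862% of all genes. That count was 3 of 9 with normexp and 5 of 9 with median centring or the mean over probes. Their summed level was 59.1 in control males, 99.2 in CB-NP males, 55.7 in control females and 91.6 in CB-NP females. Of the T cell markers, 7 of 9 were also above 0 in both sexes, beside 27.8% of all genes, with medians of 0.11 in males and 0.56 in females. Dnmt3a and Tet2 were above 0 in both sexes as well. The B cell precursor markers had summed levels of 2.56, 2.41, 2.60 and 1.75 in the same order of pools, and T cell markers 25.0, 25.5, 25.0 and 33.2. Erythroid markers summed to 1031, 929, 979 and 965, and neutrophil markers to 1331, 1398, 1397 and 1194. In the erythroid sum Slc4a1 and Alas2, the brightest, weighed most. The median erythroid difference was -0.09 in males and -0.13 in females. Macrophage markers summed to 121, 132, 119 and 116, megakaryocyte markers to 107, 129, 97.4 and 96.7, and natural killer cell markers to 12.6, 13.1, 14.2 and 11.6. Stroma markers summed to 58.6, 57.0, 53.1 and 59.4.

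Eosinophil markers summed to 31.8, 8.89, 62.3 and 17.2 in the same order, and all 6 were at least 1.5-fold lower in both CB-NP pools, against 0.402% of all genes. Pancreatic acinar markers, from the neighbouring pancreas, summed to 22.2 and 18.1 in the male and female control and to 1.77 and 1.80 in the male and female CB-NP pools. Of these 14 acinar genes, 7 could be measured in every pool. Limma called Amy2a5, Try4 and Try5 lower with CB-NP (adjusted p = 0.0171 for each), which is 3 of its 12 calls over all genes, and each of these was well above background in 2 of the 4 pools. The part of any of these cell types in the member values was not tested.

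The genes whose pattern over the 4 pools was most like that of the 2 members with the widest range were found by the smallest root mean square difference of mean-centred log2 levels, over 13928 other genes. For Dnmt3a they were Srprb (0.012), Tmem94 (0.012) and Fam167b (0.013), where the median over all genes compared was 0.22. For Tet2 they were Wfs1 (0.015), Zfp612 (0.015) and Ttc39c (0.015), where the median was 0.21. With 4 pools, many genes can share such a pattern.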

How the data were processed

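Spleen RNA pools of 4 groups were each measured on 1 array. Per the file headers, the authors scanned single-colour Agilent arrays of design 028005 (mm9) with Agilent Feature Extraction 10.10.1.1. The deposited processed signal is an intensity, background-subtracted and detrended within an array and not normalized between arrays, and its error, the raw median intensities and flags (other values of 0 or 1) were deposited beside it. The authors' value table is the same intensity times a constant per array (2.64 to 3.49), with the target of that scaling not stated and medians of 75.2, 76.1, 68.9 and 79.4 (male control, male CB-NP, female control, female CB-NP).

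Here log2 signals were scaled to the 75th percentile of each array, taken without control spots. Spots flagged as outliers (154 to 180 per array) were left out and repeated spots averaged. Probes were named by RefSeq accession (names table GRCm38.p6, for names and chromosomes), which matched 26756 of 55681 probes. The 14498 genes detected above background on 2 or more arrays were fitted with limma 3.58.1 in R 4.3.3, with treatment and sex as terms and 1 residual degree of freedom, and p-values were adjusted over all genes. The code of the fit was run on data simulated from its own variance model, which cannot show whether its p-values hold with 1 pool per group. Python 3.11.15 with pandas 2.3.3, numpy 2.4.6 and matplotlib 3.10.9 made the rest. The normexp alternative used the raw median signals.

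The members, lists and tests were chosen with earlier results of these data known. All members are named with all probes. From each list the 2 brightest genes are named, with any at least 1.5-fold different in the same direction in both sexes (up to 4, none was found in the 7 pathway lists). Not every marker gene the rule allows is named. Mki67, Top2a and Pcna were also allowed. Alternatives were other scalings, normexp background correction (offset 50), the mean over probes, other detection filters, an intensity trend, no sex term and a 2-fold threshold. No depth applies to arrays, and their number, 1 per group, limits the precision.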

Additional observations from a re-analysis of the deposited data

Results flagged for a closer look

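The male and female differences (CB-NP minus control) had opposite signs for 4 members at 1 or more probes, and for 2 named genes of the pathway lists. None of these differences between the sexes was tested. By main probe, only Dnmt3l and Tet3 of the 8 members had opposite signs, beside 32.8% of 13929 genes, also by main probe. The female difference minus the male difference was 0.44 at the main Tet3 probe and 0.80 and 0.48 at its other probes, and of these only the probe at 0.80 exceeded the scanner error in both sexes. It was 0.38 for Dnmt3l, within its scanner error in each sex, 0.54 at the dimmest Tdg probe and -0.18 at a Dnmt3b probe that was not its main one. Among pathway genes it was 1.28 for Brdt, a bromodomain gene of the germ line, beyond the scanner error in both sexes, and -0.18 for Xrcc1.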

How the results depend on the processing

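No member was called for CB-NP or sex by limma under any of the other settings fitted, and none was at least 1.5-fold or 2-fold different in both sexes under any scaling or probe choice. The lowest adjusted p that limma gave any member for CB-NP under them was 0.0833, for Dnmt3a. The members' median kept its sign in all of them, from -0.17 to -0.05 in males and from 0.10 to 0.30 in females. The count of all genes called by limma did depend on the settings, and the cause was not tested. For CB-NP it was 12, against 2 with the authors' scaling, 3 with quantile normalization, 347 with median centring, 374 with an intensity trend and 612 with normexp. It was 0 with genes well above background on all 4 arrays (2111 at an unadjusted p under 0.05) and 0 with no detection filter (1363 unadjusted), settings that test fewer and more genes. For sex it was 4, against 181 with median centring, 77 with normexp and 16 with an intensity trend, and 0 with both of those filters (801 and 836 unadjusted). Leaving out a pool leaves no residual degree of freedom with sex as a term, so it was not run. No paired analysis was possible because the labels give no replicate numbers and each group is 1 pool. All member probes were well above background, but the scanner error was larger where the signal was low, up to 0.39 for Dnmt3l.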

Other observations

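A pair of list genes stood out after their values were seen. Cbs, which draws homocysteine out of the methyl cycle, had a processed signal of 86.2 units in control males, 23.9 in CB-NP males, 40.1 in control females and 25.6 in CB-NP females. Its log2 differences were -1.87 in males and -0.34 in females (limma adjusted p = 0.377), beside pancreatic acinar markers that were lower in the same pools, whose part in it was not tested. Gadd45b, a stress gene linked to active demethylation, was higher in both CB-NP pools by 0.43 and 0.47 (limma adjusted p = 0.310, unadjusted p = 0.0108). Of all genes tested, 13.8% had an unadjusted p under 0.05. The brighter Gadd45a, of the same family and list, was at 0.11 in males and -0.40 in females.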
